A study of Homo sapiens with 4 samples.

Results

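The genes described here encode the machinery that carries proteins between the endoplasmic reticulum (ER) and the Golgi apparatus in COPII and COPI coated vesicles. They were taken from a list of 55 gene symbols, by name and role. No measured value is in the rule, but the list was chosen with earlier results of these data known. SEC12 is a synonym of PREB, so the list holds 54 genes out of 64252 rows in the count table: 16 for the COPII coat and its assembly, 13 for the COPI coat and the ARF GTPases, 17 cargo receptors, and 8 tethers and SNARE proteins. Of the 54 genes, 53 passed the filter on low counts. The remaining gene, SEC16B, had 0 counts in all 4 libraries, which allows up to 3 counts per library, a CPM of about 0.101 to 0.105 (CPM is the count scaled to library size).

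The study measured RNA by sequencing in SK-N-BE(2), an established MYCN-amplified human neuroblastoma cell line. Cells were transfected with a control short hairpin RNA (shControl, 2 libraries) or with a hairpin against CDK5RAP3 (shCDK5RAP3, 2 libraries). CDK5RAP3 is a partner of the enzyme that attaches the small protein UFM1 to ribosomes at the ER, and it has a known part in turnover of the ER by autophagy. The labels give no further treatment, time point or hairpin number, and do not say that the 2 libraries of a group came from separate cultures, so p-values measure the spread between these libraries and that spread may be technical.

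COPII coats form on the ER. The exchange factor PREB activates a SAR1 GTPase, which recruits the inner coat of SEC23 and SEC24 and then the outer coat of SEC13 and SEC31, while SEC24 and transmembrane receptors select the cargo. COPI coats form on the Golgi and the intermediate compartment when ARF GTPases recruit the coatomer complex, and they return receptors and escaped ER proteins to the ER. In neuroendocrine cells such as these the same route supplies the granule proteins and receptors of the regulated secretory pathway.

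The controls held 28721740 and 28755837 counts in total, and the knockdown libraries 28653689 and 30138393. CDK5RAP3 itself, on chromosome 17, had 2529 and 2866 counts in the controls and 1669 and 1689 counts after knockdown. Its knockdown level was 62.1% of the control mean in CPM (log2 change -0.69 ± 0.08 SE, edgeR adjusted p = 0.000163). The 8 noradrenergic neuroblastoma markers were all present, with a summed level of 7074 to 7521 CPM in the controls and 4534 to 4678 CPM after knockdown, most of it MYCN (4674 and 4921 against 2813 and 2881 CPM). Of the 8, 7 fell and GATA3 did not pass. Of the markers of other cell types, 4 fibroblast genes summed to 277 to 296 CPM in the controls and 79.6 to 89.8 CPM after knockdown, most of the control sum being PDGFRB (228 and 202 CPM). PDGFRB, DCN and COL1A1 fell, COL1A1 by 0.28 on the log2 scale, and COL1A2 stayed under 1 CPM. Leukocyte, endothelial, epithelial and Schwann cell lists each stayed under 8 CPM in all libraries, with CD3E, CDH1 and SOX10 at 0. The part of these marker changes in the results below was not tested, and in bulk RNA fewer cells of a type and less RNA per cell cannot be told apart.

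Most of the coat genes rose, while the cargo receptors went both ways, as abundant genes in general did. The largest changes among all 53 tested genes were falls of the cargo receptors TMED2 and TMED10. With a Benjamini-Hochberg adjusted p under 0.05 in edgeR's quasi-likelihood test, adjusted over the whole table, 32 of the 53 genes rose, 7 fell and 14 did not pass. Of all 18775 genes tested, 41.5% passed, 19.7% higher and 21.8% lower, against 60.4% higher and 13.2% lower among the transport genes. These genes are mostly abundant, and abundant genes were called more often. Among all 6592 genes with a mean log2 CPM of at least 5, 33.7% rose and 25.5% fell, and of the 46 transport genes at that level 30 rose and 5 fell. The median log2 change was 0.31 over the 53 genes, -0.0034 over all tested genes and 0.06 over the abundant ones. The count of 39 genes past the threshold went to 28 when shCDK5RAP3 replicate 1 was left out and to 24 when shCDK5RAP3 replicate 2 was, and the count over all genes then went from 7792 to 4836 and 3752. Under all 11 alternative settings, 24 of the 39 kept their call and direction, 19 higher and 5 lower. Control and knockdown levels did not overlap in 48 of the 53 genes, more than the 39 called. The share over all tested genes was not counted, so a lack of overlap is given below as a description and adds no support to a call.

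**Figure D1:**
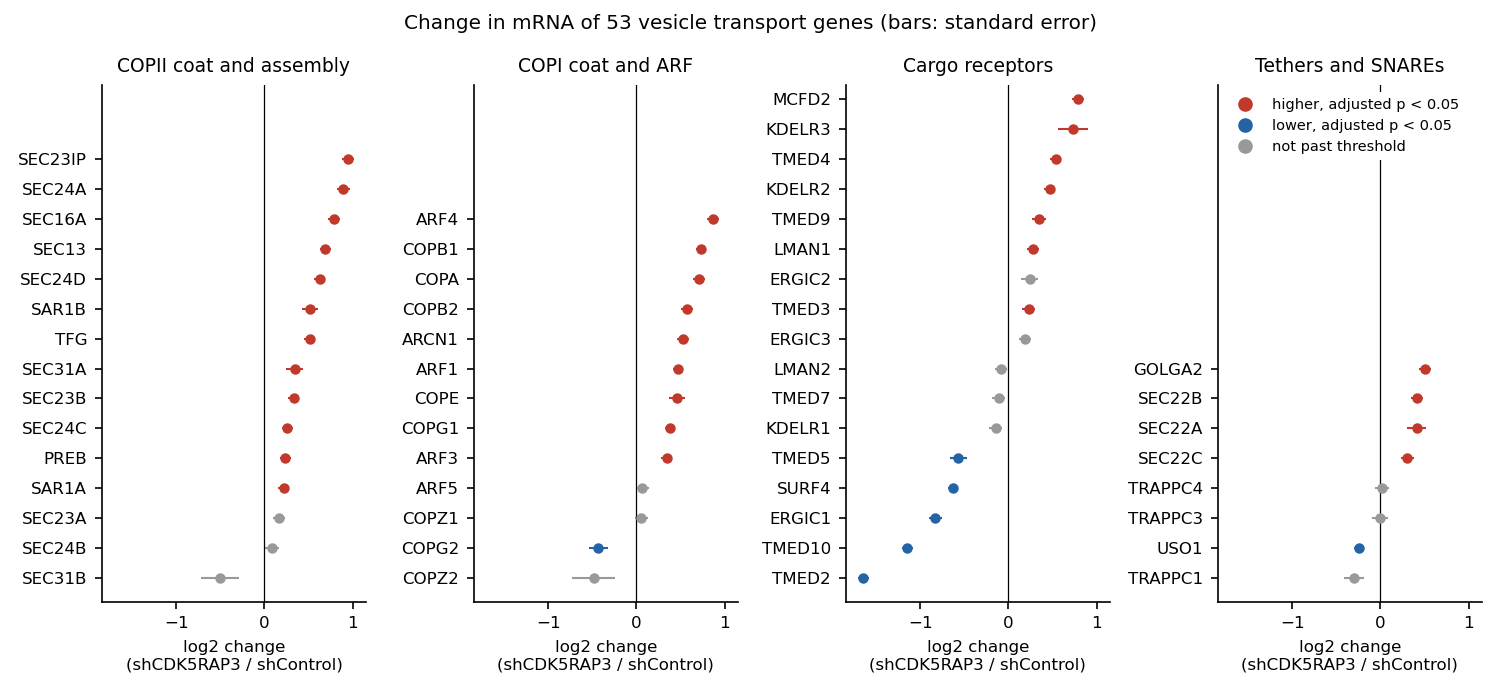
Log2 change of each of the 53 tested genes (shCDK5RAP3 over shControl, horizontal axis) in 4 panels by role. Points are fitted changes, bars are standard errors and colours mark the call. Nearly all points of the COPII and COPI panels lie right of 0, while the cargo receptor panel runs from -1.64 (TMED2) to 0.79 (MCFD2).

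In the COPII coat and its assembly factors, 12 of 15 tested genes rose, none fell and 3 did not pass, with a median log2 change of 0.34. Of the 14 with a mean log2 CPM of at least 5, 12 rose and none fell, against 33.7% and 25.5% of all genes at that level. Without either shCDK5RAP3 library the number that rose was 7, and without shControl replicate 1 the low gene SEC31B counted as lower. The largest rises were in SEC23IP, SEC24A, SEC16A and SEC13.

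SEC23IP, which binds the inner coat at ER exit sites, had 57.2 and 56.1 CPM in the controls and 113 and 105 CPM after knockdown. Both knockdown libraries lay far above both controls, at 1.93-fold the control mean (log2 change 0.95 ± 0.07 SE, adjusted p = 1.58e-05). SEC24A, 1 of the 4 SEC24 paralogs that select cargo, had 40.3 and 41.2 CPM in the controls and 76.5 and 74.8 CPM after knockdown. Its replicates were within 2 CPM of each other in each group, and the knockdown mean was 1.86-fold the control mean (log2 change 0.89 ± 0.07 SE, adjusted p = 2.45e-05). SEC16A, the large scaffold of ER exit sites, had 104 and 98.2 CPM in the controls and 181 and 168 CPM after knockdown. The groups did not overlap, with a 1.73-fold higher knockdown mean (log2 change 0.79 ± 0.07 SE, adjusted p = 3.92e-05). SEC13, of the outer coat and also a nuclear pore protein, had 84.3 and 84.1 CPM in the controls and 137 and 135 CPM after knockdown. This was a 1.61-fold difference with little spread in either group (log2 change 0.69 ± 0.06 SE, adjusted p = 4.5e-05).

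SEC24D, another cargo-selecting paralog, had 109 and 105 CPM in the controls and 167 and 164 CPM after knockdown (log2 change 0.62 ± 0.06 SE, adjusted p = 8.29e-05). TFG, which clusters COPII carriers at the exit site, had 99.8 and 94.4 CPM in the controls and 137 and 139.5 CPM after knockdown (log2 change 0.51 ± 0.06 SE, adjusted p = 0.000283). SAR1B, a coat GTPase needed for chylomicron export in the gut, had 30.2 and 33.5 CPM in the controls and 45.9 and 45.3 CPM after knockdown (log2 change 0.52 ± 0.09 SE, adjusted p = 0.00153). In all 3 genes the lowest knockdown library lay above the highest control. The other risers were smaller: SEC31A 0.34 (outer coat), SEC23B 0.33 (inner coat), SEC24C 0.26, PREB 0.23 and SAR1A 0.22 on the log2 scale. The calls of these 5 genes were lost without either shCDK5RAP3 library, and the change of SEC31A was 0.19 without shControl replicate 2. SEC23A (0.16 ± 0.06 SE, adjusted p = 0.0689) and SEC24B (0.08 ± 0.08 SE, adjusted p = 0.461) did not pass. SEC31B, at 138 and 187 counts in the controls and 117 and 112 after knockdown, had a log2 change of -0.51 ± 0.21 SE (adjusted p = 0.0879).

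The paralogs of one coat position therefore moved by unequal amounts within the same libraries. For every 100 counts of SEC24B there were 75.5 and 85.4 counts of SEC24A in the controls and 139 and 142 after knockdown. Per kilobase of exon, SEC24C was the highest of the 4 SEC24 genes in every library, holding 49.5% of the summed SEC24 level in the controls and 45.1% after knockdown. With the longest transcript as length in place of the exon union, SEC24D came first after knockdown. SEC24A was the lowest in the controls at 10.9% and held 15.4% after knockdown, next to SEC24B at 15.1%. The summed SEC24 level was 52.4 and 51.6 CPM per kb in the controls and 69.8 and 66.7 CPM per kb after knockdown. SEC24A and SAR1B overlap head to head on chromosome 5 (GRCh38 chr5:134648789-134727823, plus strand, and chr5:134601144-134649271, minus strand). Whether reads were assigned by strand is not stated in those sources that were used, so reads of the overlap cannot be placed.

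**Figure D2:**
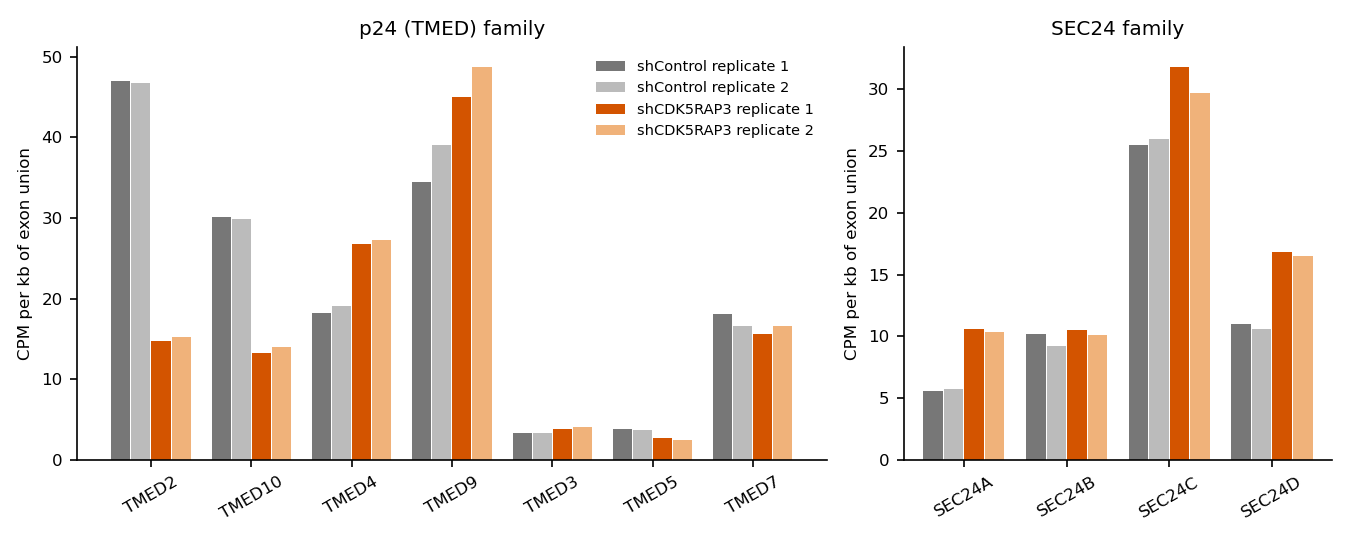
CPM per kilobase of exon union (vertical axis, from 0) of the 7 listed p24 (TMED) genes and the SEC24 family, with 1 bar per gene and library. TMED2 and TMED10 bars drop in both knockdown libraries while TMED9 and TMED4 bars are higher, and SEC24A and SEC24D bars are higher while SEC24B bars are level.

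In the COPI group, 9 of 13 genes rose, 1 fell and 3 did not pass, with a median log2 change of 0.46. Of the 11 with a mean log2 CPM of at least 5, 9 rose and none fell, against 33.7% and 25.5% of all genes at that level. Of the 9 coatomer genes, 6 rose, and of the 4 ARF genes 3 rose. Without shCDK5RAP3 replicate 2 there were 7 higher and none lower.

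ARF4, a GTPase of the early Golgi, had the largest rise, with 83.0 and 79.7 CPM in the controls and 145 and 152 CPM after knockdown. The knockdown mean was 1.83-fold the control mean (log2 change 0.87 ± 0.06 SE, adjusted p = 1.81e-05). COPB1, the beta subunit of the coatomer, was at 161 CPM in both controls and at 269 and 265 CPM after knockdown. That is a 1.66-fold difference, many times the spread within either group (log2 change 0.73 ± 0.06 SE, adjusted p = 2.7e-05). COPA, the alpha subunit, had 275 and 256 CPM in the controls and 448 and 422 CPM after knockdown, 1.64-fold the control mean (log2 change 0.71 ± 0.06 SE, adjusted p = 5.06e-05). COPB2, its partner in the cage-like outer layer, had 159.8 and 147 CPM in the controls and 226 and 230.0 CPM after knockdown (log2 change 0.57 ± 0.07 SE, adjusted p = 0.000181). ARCN1, the delta subunit, had 292 and 268 CPM in the controls and 413 and 394 CPM after knockdown (log2 change 0.53 ± 0.07 SE, adjusted p = 0.000271). For all 5 genes the groups were apart.

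ARF1 (0.47), COPE (0.46), COPG1 (0.38) and ARF3 (0.35) also rose on the log2 scale, but the calls of COPE (adjusted p = 0.085) and ARF3 (adjusted p = 0.053) were lost without shCDK5RAP3 replicate 2. COPG2, the less abundant gamma subunit, went the other way. It had 33.3 and 31.1 CPM in the controls and 25.7 and 22.1 CPM after knockdown (log2 change -0.43 ± 0.11 SE, adjusted p = 0.00998), a call that was lost without shCDK5RAP3 replicate 2 (adjusted p = 0.12) and with no filter on low counts (adjusted p = 0.073). Within each library COPG2 stood at 20.8 and 19.4 counts per 100 counts of COPG1 in the controls and at 12.2 and 10.7 after knockdown. COPZ1 (0.06 ± 0.07 SE) and ARF5 (0.07 ± 0.08 SE) had groups that overlapped and did not pass. COPZ2, the second zeta subunit, had 78 and 98 counts in the controls and 62 and 64 after knockdown (log2 change -0.48 ± 0.24 SE, adjusted p = 0.146). COPZ2 lies 44393 bases from CDK5RAP3 on chromosome 17.

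ARF1 had the highest level per kilobase of the COPI group in all 4 libraries, at 115 and 117 CPM per kb in the controls and 156 and 165 CPM per kb after knockdown. ARF4 held 12.7% of the summed level of the 4 ARF genes in the controls and 17.5% after knockdown, and ARF5 28.5% and 22.4%.

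The cargo receptors did not move 1 way: 7 of 17 rose, 5 fell and 5 did not pass, with a median log2 change of 0.19. That is 41.2% higher and 29.4% lower, against 19.7% and 21.8% of all tested genes. Of the 15 receptors with a mean log2 CPM of at least 5, 6 rose and 4 fell. Among all genes at that level 33.7% rose and 25.5% fell, so a split of this kind is not particular to the receptors. The number that rose went to 4 when shCDK5RAP3 replicate 1 was left out and to 3 when shCDK5RAP3 replicate 2 was, while the 5 falls held without any 1 library. In the p24 (TMED) family of membrane proteins, which bridge cargo and both coats, 3 of the 7 listed genes rose and 3 fell.

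TMED2 (GRCh38 chr12:123584531-123598577, plus strand) had 5207 and 5206 counts in the controls and 1618 and 1722 counts after knockdown. The controls differed by 1 count and both knockdown libraries lay far below them. In CPM it was 179.6 ± 0.647 in the controls and 57.4 ± 1.09 after knockdown (SD, n = 2), 32.0% of the control mean (log2 change -1.64 ± 0.06 SE, edgeR adjusted p = 6.56e-07). TMED10 (chr14:75131470-75176631, minus strand), the known partner of TMED2 in p24 complexes, had 4334 and 4327 counts in the controls and 1874 and 2057 counts after knockdown. Its CPM was 149 ± 0.688 in the controls and 67.6 ± 2.75 after knockdown (SD, n = 2), 45.3% of the control mean (log2 change -1.14 ± 0.07 SE, edgeR adjusted p = 4.37e-06). TMED10 has annotated pseudogenes of its name that could share reads with it. TMED5, a p24 gene of lower level, had 36.1 and 34.6 CPM in the controls and 25.0 and 22.7 CPM after knockdown (log2 change -0.57 ± 0.10 SE, adjusted p = 0.00142).

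TMED4 went up, with 68.9 and 72.1 CPM in the controls and 101 and 103 CPM after knockdown (log2 change 0.53 ± 0.06 SE, adjusted p = 0.000239). TMED9 (0.35) and TMED3 (0.23) also rose, and TMED7 (-0.11 ± 0.08 SE, adjusted p = 0.282) did not pass. The call of TMED9 was lost without shCDK5RAP3 replicate 2 (log2 change 0.29) and with no filter on low counts (edgeR adjusted p = 0.097). That of TMED3 was lost in DESeq2 (adjusted p = 0.074) and with no filter (edgeR adjusted p = 0.096). It was also lost without shControl replicate 2 (log2 change 0.22) or either shCDK5RAP3 library (0.28 and 0.18). The order of the family per kilobase was different in the 2 groups of libraries. TMED3 was divided by an exon union of 19470 bases, more than any relative, and its longest transcript has 16555 bases. Which of its isoforms were expressed was not examined, so the place of TMED3 and the shares and sum of the family are uncertain to that extent. TMED2 stood first in the controls at 47.0 and 46.8 CPM per kb and fell to 14.8 and 15.2 CPM per kb, below TMED9 at 45.1 and 48.8 CPM per kb and TMED4 at 26.8 and 27.3 CPM per kb. Of the summed level of the 7 listed p24 genes, TMED2 and TMED10 held 29.9% and 19.2% in the controls and 12.0% and 10.9% after knockdown. TMED9 went from 23.4% to 37.5%. TMED1, TMED6 and TMED8, of the wider list, are not in this sum, so shares of all TMED genes would be smaller. TMED1 stood at 15.2 and 18.7 CPM per kb in the controls and at 13.7 and 19.2 CPM per kb after knockdown. The summed level itself was 155 and 158 CPM per kb in the controls and 122 and 128 CPM per kb after knockdown. Set against the coat that carries them, there were 65.4 and 69.8 counts of TMED2 per 100 counts of COPA in the controls and 12.7 and 13.8 after knockdown.

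ERGIC1, a membrane protein that cycles through the intermediate compartment, had 146 and 142 CPM in the controls and 77.5 and 85.1 CPM after knockdown. The knockdown mean was 56.4% of the control mean (log2 change -0.83 ± 0.07 SE, adjusted p = 3.28e-05). SURF4, a receptor for soluble cargo leaving the ER, had 218 and 225 CPM in the controls and 141 and 145 CPM after knockdown, 64.7% of the control mean (log2 change -0.63 ± 0.06 SE, adjusted p = 7.29e-05). Both groups of libraries were apart for both genes. Per kilobase, SURF4 was the highest of the cargo receptors in both controls, at 63.1 and 65.2 CPM per kb, and stood at 40.9 and 42.1 CPM per kb after knockdown, below KDELR2 at 55.7 and 53.8 CPM per kb. With the longest transcript as length, SURF4 and TMED2 were close in the controls and their order differed between the libraries. ERGIC2 (0.24 ± 0.10 SE, adjusted p = 0.0779) and ERGIC3 (0.19 ± 0.07 SE, adjusted p = 0.059) did not pass.

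MCFD2, the soluble partner of the lectin LMAN1 in the export of coagulation factors, had 3469 and 3178 counts in the controls and 5711 and 5831 counts after knockdown. The knockdown mean in CPM was 1.73-fold the control mean (log2 change 0.79 ± 0.07 SE, adjusted p = 3.73e-05). LMAN1 rose by less, 0.28 on the log2 scale (adjusted p = 0.0136, lost without shControl replicate 2 or either shCDK5RAP3 library), and MCFD2 went from 148 and 151 to 216 and 210 counts per 100 counts of LMAN1. LMAN2, a related lectin, had a log2 change of -0.09 ± 0.07 SE and did not pass.

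The KDEL receptors return escaped ER residents to the ER in COPI vesicles. KDELR2 had 159 and 157 CPM in the controls and 222 and 215 CPM after knockdown (log2 change 0.47 ± 0.06 SE, adjusted p = 0.000346). KDELR3, the least abundant of the 3, had 170 and 218 counts in the controls and 324 in each knockdown library (log2 change 0.74 ± 0.17 SE, adjusted p = 0.00762). The call of KDELR3 was lost without either shCDK5RAP3 library (adjusted p = 0.065 and 0.077) and with no filter on low counts (adjusted p = 0.068), and that of KDELR2 was not lost under any alternative run. KDELR1 had a log2 change of -0.14 ± 0.08 SE (adjusted p = 0.157), while KDELR2 held 53.3% of the summed level of the 3 genes per kilobase in the controls and 61.7% after knockdown. Of a list of 16 ER residents, 1 rose (SDF2, 0.46), 2 fell (P4HB -0.28, PDIA3 -0.23) and 13 did not pass, with a median log2 change of -0.07. That is 6.25% higher and 12.5% lower, against 19.7% and 21.8% of all tested genes. The list was drawn up for proteins retrieved by these receptors, but the retrieval signal was not checked in any of them and DNAJB11, for one, is not known to end in it. The chaperones HSPA5 (0.17, adjusted p = 0.089), HSP90B1 (0.08) and CALR (0.00) were among the 13 that did not pass.

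**Figure D3:**
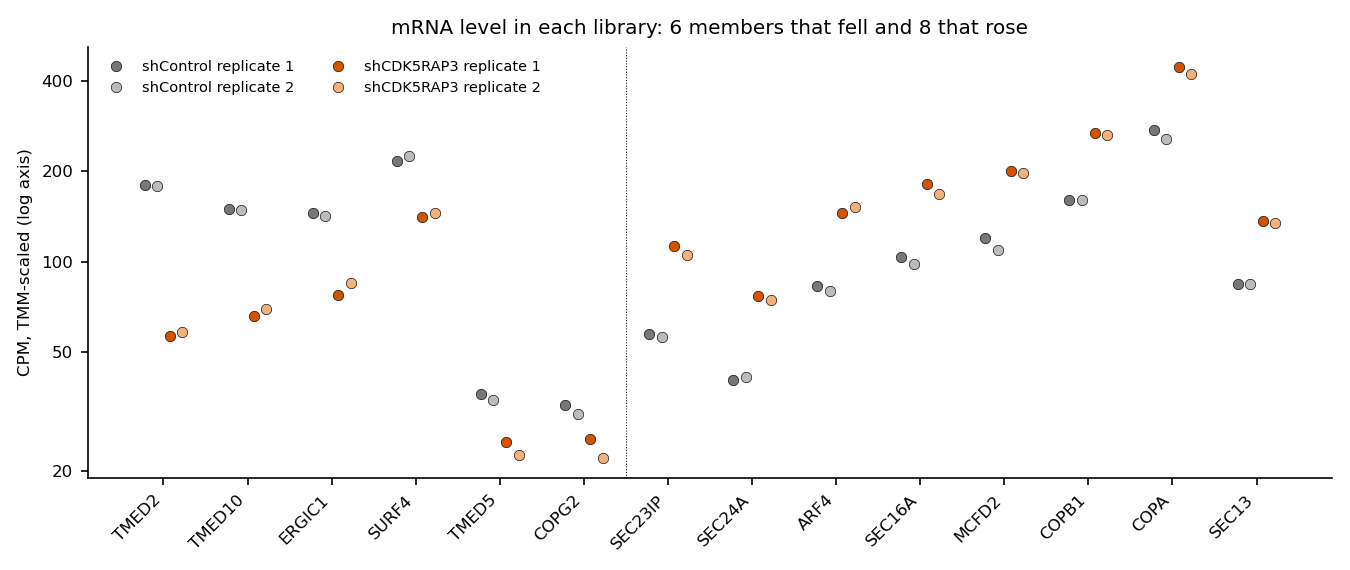
CPM on a log axis in each of the 4 libraries for the 6 largest falls that passed the threshold (left of the dotted line) and 8 of the 9 largest rises, KDELR3 left out for its low level. For every gene drawn, the 2 knockdown points lie on the same side of both control points. The genes were chosen by their change in these same libraries, so this separation follows from the choice and is no further support.

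Among the tethers and SNAREs, 4 of 8 rose, 1 fell and 3 did not pass, with a median log2 change of 0.16. That is 50% higher and 12.5% lower, against 19.7% and 21.8% of all tested genes. Of the 6 with a mean log2 CPM of at least 5, 3 rose and 1 fell, against 33.7% and 25.5% of all genes at that level. So few genes do not set the group apart from abundant genes in general. Without either shCDK5RAP3 library 2 rose (GOLGA2 and SEC22B) and none fell, and without shControl replicate 1 there were 2 lower. GOLGA2, the Golgi matrix protein GM130, had 85.6 and 83.7 CPM in the controls and 125 and 115 CPM after knockdown (log2 change 0.50 ± 0.07 SE, adjusted p = 0.000432). SEC22B, the SNARE of ER to Golgi carriers, had 95.8 and 89.7 CPM in the controls and 121 and 127 CPM after knockdown (log2 change 0.42 ± 0.07 SE, adjusted p = 0.00109). Its relatives SEC22A, at 17.7 and 16.7 against 23.8 and 21.9 CPM (0.41 ± 0.11 SE, adjusted p = 0.0142), and SEC22C, at 60.8 and 57.2 against 76.4 and 69.7 CPM (0.31 ± 0.08 SE, adjusted p = 0.0109), rose too. No control library overlapped a knockdown library in these 4 genes, which holds for 48 of the 53 tested genes. USO1, the p115 tether that binds GOLGA2, went the other way, with 100.4 and 98.7 CPM in the controls and 84.9 and 83.4 CPM after knockdown (log2 change -0.24 ± 0.06 SE, adjusted p = 0.0127). Of the TRAPP tether subunits, TRAPPC1 had a log2 change of -0.30 ± 0.12 SE (adjusted p = 0.0648), and TRAPPC3 (-0.01) and TRAPPC4 (0.02) changed sign with the scaling or a library left out.

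**Figure D4:**
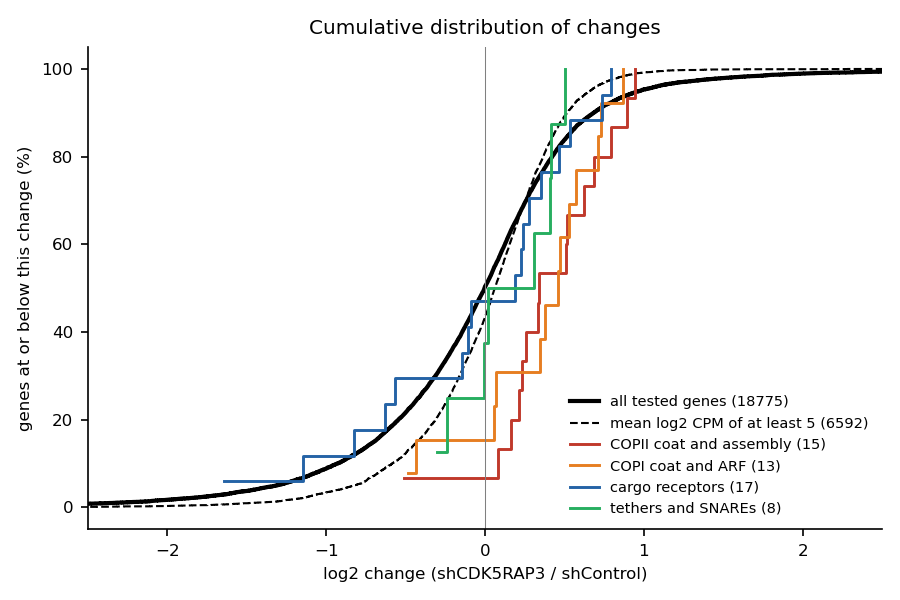
Cumulative share of genes (vertical axis, %) at or below a given log2 change (horizontal axis) for all 18775 tested genes, the 6592 abundant ones and the 4 role groups. The COPII and COPI curves lie right of both reference curves over most of the range. The cargo receptor curve begins at -1.64 (TMED2), a change below which 2.9% of all tested genes lie.

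A wider list of 74 other genes of the same routes, of which 73 were tested (LMAN1L had 0 counts), held 30 that rose, 10 that fell and 33 that did not pass, with a median log2 change of 0.16. The largest rises were in NAPA (0.93, adjusted p = 1.96e-05), the alpha-SNAP that helps take apart SNARE complexes, and in 2 regulators of ARF, the GTPase-activating protein ARFGAP1 (0.81, adjusted p = 6.84e-05) and the exchange factor GBF1 (0.79, adjusted p = 3.73e-05). RINT1, of the tether that receives COPI vesicles at the ER, rose by 0.75 (adjusted p = 0.000184). Of the 10 SNARE genes of the wider list, counted and named here after their values were seen, 5 rose (YKT6 by 0.73, GOSR1 by 0.65, GOSR2 by 0.65, STX5 by 0.48 and BET1 by 0.37), 2 fell (BET1L -0.44 and STX17 -0.65), and STX18, USE1 and BNIP1 did not pass. The largest falls were in TRAPPC6A, CNIH2, STX17 and TMED8. TRAPPC6A, a TRAPP subunit, had 338 and 395 counts in the controls and 71 and 93 after knockdown (log2 change -2.16 ± 0.19 SE, adjusted p = 4.36e-05). CNIH2, a cornichon protein known for AMPA receptor export, had 582 and 572 counts in the controls and 280 and 298 after knockdown, a mean of 19.9 against 9.94 CPM (adjusted p = 0.000215). STX17 (-0.65, adjusted p = 0.00455, lost without shCDK5RAP3 replicate 2 at 0.0758), a syntaxin, and TMED8 (-0.54, adjusted p = 0.00056) followed. Counting listed and wider genes together, 4 of 14 TRAPP subunits rose and 3 fell, and 2 of 8 COG subunits rose and none fell. At 28.6% higher and 21.4% lower, the TRAPP subunits were near the shares of all tested genes. The 25% of COG subunits that rose was near them too.

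Of 11 regulators known to act on transport or ER stress genes, 10 were tested and CREB3L1 was too low, with 3, 5, 13 and 0 counts. TFE3 (0.67) and CREB3 (0.36) rose. XBP1 (-1.06), ERN1 (-0.90), which encodes the sensor IRE1 that splices XBP1 mRNA, CREB3L2 (-0.42) and MBTPS2 (-0.41) fell. ATF6 (-0.18), ATF6B (-0.21), MBTPS1 (0.01) and TFEB (-0.32) did not pass. XBP1 had 2191 and 2515 counts in the controls but 1554 and 701 in the knockdown libraries, which are far from each other, and the size of its fall depended on which was kept (log2 change -1.77 with replicate 2 alone, -0.58 with replicate 1 alone). Its call (adjusted p = 0.016) was lost in DESeq2 (adjusted p = 0.14), in the robust fit (adjusted p = 0.29) and with no filter on low counts (adjusted p = 0.22). The calls of ERN1 (adjusted p = 0.067), CREB3L2 (0.082), MBTPS2 (0.066) and CREB3 (0.32) were lost without shCDK5RAP3 replicate 2, where the change of CREB3 was 0.20, and CREB3 also lost its call without shControl replicate 1. The call of TFE3 was kept under all alternatives run.

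Promoter sequences are shown because some of the coat and ARF genes that rose carry the same short word within 214 bases of a RefSeq start. The word is TGACGTG, or CACGTCA read on the other strand, the core of the UPR element, a sequence known to be bound by XBP1 and ATF6. RefSeq windows (GRCh38.p14) run from 250 bases before to 50 bases after a start, and 47 of the 54 genes have at least 1, with 65 windows in all. SEC24D, ARF4, TMED4, TMED9, ERGIC1, KDELR2 and USO1 have none in the table. The core is in the windows of 11 of the 47 genes (23.4%), 12 sites with 6 in each orientation. It is in 1.97% of all 35116 windows and in 3.27% of the 10995 tested protein-coding genes with a window. The sites of the 10 tested genes follow, 5′ to 3′ on the gene's strand, with the core in capitals and 10 bases on each side.
SEC24A: tgagagtcggTGACGTGgcggcgaggc
SEC16A: gccctggtgcCACGTCAgccggactga
COPB1: cacccccttcCACGTCAgccaaggact
KDELR3: ccgccctggcCACGTCAccgcccggcc
COPA: agagggtcgcTGACGTGgaggcgtccg
SEC13: tctggtctcgCACGTCActggaggata
COPB2, upstream: tcagcggcacCACGTCAcggcccttag
COPB2, at the start: ccggaagttcCACGTCAgtcagtctga
ARF1: ccggaggcgcTGACGTGgccgccgtca
COPE: tgcttccggcTGACGTGtctttcagga
SEC23A: cccctcctctTGACGTGgcagaggcgg

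On GRCh38 the core of SEC24A is at chr5:134648606-134648612 (plus strand gene), 179 bases before the start. That of COPB1 is at chr11:14499852-14499858, 47 bases before the start of this minus strand gene. COPA and SEC16A hold theirs just after a RefSeq start, at chr1:160343239-160343245 and chr9:136484718-136484724, both minus strand genes. COPB2 holds it both 195 bases and 2 bases before 1 of its starts.

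Of the 10 tested genes with the core, 9 rose, none fell and SEC23A did not pass, with a median log2 change of 0.70. The 36 tested genes with a window but no core held 18 that rose and 5 that fell, with a median of 0.22. Core and role go together here. All of the 10 genes but KDELR3 are coat or ARF genes. The 5 falls were TMED2, TMED5, TMED10, SURF4 and COPG2, all cargo receptors but COPG2. This split therefore does not separate the core from the role. Over all tested protein-coding genes the same split gave similar shares: of 359 with the core, 25.3% rose and 25.6% fell (median 0.02), and of 10636 without it 23.3% rose and 25.9% fell (median -0.02). The ATF/CRE word TGACGTCA was in the windows of 1 of the 47 genes, TRAPPC1. It was in 1.85% of all windows and in 3.77% of the tested protein-coding genes with a window. CCAAT followed after 9 bases by CCACG, the ER stress element, was in none of the 47 genes. It was in 0.0769% of all windows and in 0.146% of the tested protein-coding genes with a window. A match of letters is not a measured binding site. The gene list and the motifs were chosen with earlier results of these data known, so these counts are a description only.

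**Figure D5:**
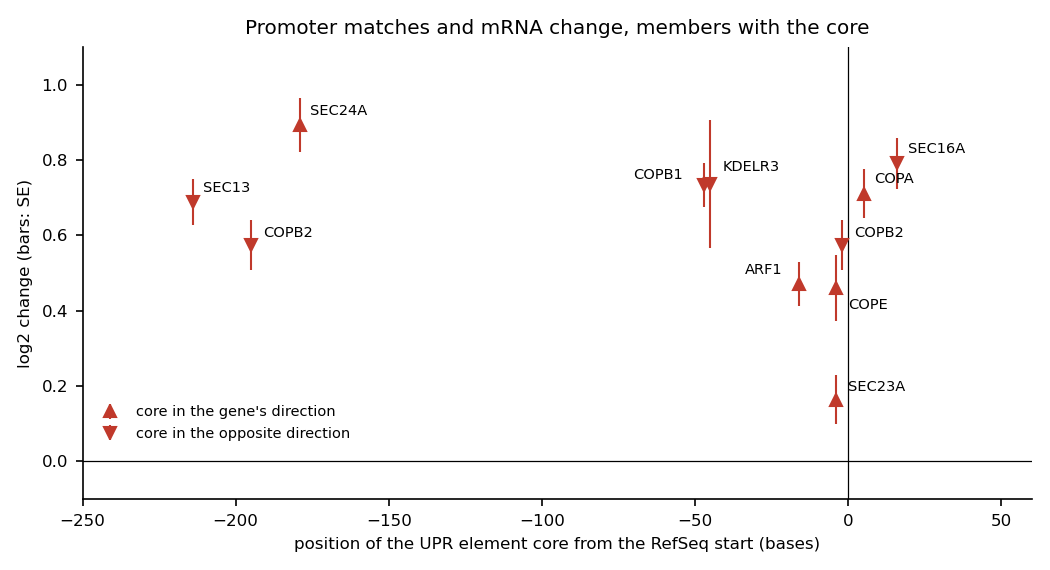
Log2 change with its standard error (vertical axis) against the position of the UPR element core from the RefSeq start in bases (horizontal axis, negative before the start) for the 10 tested genes with the core. COPB2 is drawn at both of its sites, and triangles point up where the core is in the gene's direction. All points lie above 0, from SEC23A at 0.16 to SEC24A at 0.89, at positions from 214 bases before to 16 bases after the start.

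The 3′ untranslated regions were searched for the words AACACCT and ACACCTA, which earlier results of these data had tied to genes that fell. The longest annotated region of each gene in GENCODE 29 was used. Of the 53 tested genes 8 hold a word, of which 4 rose (SAR1A, SAR1B, TMED3 and SEC22B) and 4 fell (TMED2, TMED5, SURF4 and USO1), with a median log2 change of -0.01. The 45 genes without one held 28 that rose and 3 that fell (TMED10, ERGIC1 and COPG2), with a median of 0.34. Over all tested protein-coding genes, 41.2% of the 2344 with a word and 23.4% of the 11291 without one fell. Because the words came from these same data, that difference follows from their choice and is no separate support. The length of the regions was not accounted for. Among the 17 cargo receptors 4 hold a word, 3 that fell and TMED3, which rose, and the other 2 falls, TMED10 and ERGIC1, were in receptors without one. All sites of the 4 are printed with the word in capitals, so that those of the receptors that fell stand beside those of TMED3. They begin at base 46 of 1848 in TMED2, at bases 1378 (where both words overlap) and 3500 of 4928 in TMED5, at base 1481 of 2279 in SURF4, and at bases 8512 and 10052 of 15928 in TMED3.
TMED2: gtttaccaAACACCTtggtcata
TMED5, first site: aagttttaAACACCTAaatgtgaa
TMED5, second site: ggagccatACACCTAatgtacgt
SURF4: ggtagtcgAACACCTctctggcc
TMED3, first site: caacaaacAACACCTgaacaaat
TMED3, second site: tccaattgAACACCTcttggatt

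Shared annotation limits some of these values. In GENCODE 29, 33 of the 54 genes share exon bases with another annotated gene, and 9 share at least 10% of them: ARF3, ARF4, ARF5, SEC16B, SEC22A, SEC24C, SEC31B, TMED7 and TRAPPC4. Pseudogenes of the same name are annotated for 8 genes, SAR1A, SEC13, SEC24A, ARF1, ARF4, TMED10, MCFD2 and GOLGA2. How reads that fit several genes were counted is not stated in the labels, so the values of these genes are uncertain to that extent.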

How the data were processed

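For the 4 libraries the authors deposited raw counts for each Ensembl gene in a single table. Per the labels' protocols, TRIzol RNA went into a TruSeq RNA kit. The tools named are StringTie and HISAT2 2.2.0, and the build hg38, per the submitters' processing notes, which give them no role. Neither the annotation release nor the strand setting is given in the sources used here.

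Each symbol was matched to 1 row through GENCODE 29 (56591 of 64252 rows matched) and checked against RefSeq synonyms. In R 4.3.3, edgeR 4.0.16 was run on the counts of all genes with TMM factors, its filter by group, and a quasi-likelihood test of group without other terms. P-values were adjusted over all 18775 tested genes, and the threshold was 0.05. CPM values use TMM-scaled library sizes. A standard error is the ratio of a log2 change to the root of its F statistic. Levels per kilobase use the union of annotated exons. With 2 libraries a group, precision rests on each gene's quasi-likelihood dispersion, which is moderated towards that of the other genes. The common biological coefficient of variation was 0.0959. Intervals and floors on counts cover counting error only. Replicates differed by more than counting noise (chi-square per degree of freedom 8.67 and 6.81). The steps were tested on simulated data. DESeq2 1.42.0, other scalings and filters, a robust fit, a replicate block and each library left out were the alternatives.

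Full values are given for genes past the threshold with an absolute log2 change of at least 0.5 and for the 4 largest changes of a role. Of the wider list, the 4 largest rises and 4 largest falls are named. The gene list, the wider lists, the motifs and the words were chosen with earlier results of these data known, and the reference set of abundant genes was chosen after the data were seen. No set test was run.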

Additional observations from a re-analysis of the deposited data

How the results depend on the processing

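The number of transport genes past the threshold was 39 with all libraries and 24 to 41 with 1 library left out, and over all genes 7792 became 3752 to 7329. Leaving out 1 library gave 7 to 12 COPII genes higher and 0 to 1 lower, 0 to 1 COPI genes lower, 3 to 8 cargo receptors higher, and 2 to 4 tethers and SNAREs higher and 0 to 2 lower. With 1 library left in a group, that library is assumed to vary like the other group. Of the 39 transport genes, 24 kept their call under all 11 alternatives, among them the 5 cargo receptors that fell, and none of the 39 changed direction.

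Without the filter on low counts, 4488 genes passed over all and 27 of the transport genes, with 0 COPI genes lower, 3 cargo receptors higher and 2 tethers and SNAREs higher. With library sizes alone 2 tethers and SNAREs were lower. DESeq2 called 38 of the transport genes and 6335 genes over all. With the replicate number as a block (replicate block), 43 transport genes and 9148 genes passed, and 2 tethers and SNAREs were lower. Same-numbered libraries deviated together with a correlation of 0.15 over 13893 genes, but with 2 pairs the numbers do not establish a pairing. No scaling moved the median of all genes by 0.1.

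Values near 0 changed sign. With 1 library left out, log2 changes ran from -0.0127 to 0.127 for COPZ1, from -0.00875 to 0.139 for ARF5, from -0.0718 to 0.0585 for TRAPPC3, from -0.0666 to 0.0998 for TRAPPC4 and from -0.0161 to 0.0445 for MBTPS1. TRAPPC3 was 0.00111 with relative log expression factors, and with library sizes alone TRAPPC4 was -0.0116 and MBTPS1 -0.0168. The cause of these shifts was not tested. With the longest transcript as length, shares of SEC24A were 8.92% and 12.1%, and of TMED10 16.1% and 8.82%. KDELR3, COPZ2 and SEC31B, at 62 to 324 counts a library, had the largest standard errors of the 53 genes (0.17 to 0.24).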
